A study of Mus musculus with 8 samples.

Results

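The genes described here encode the chaperones, folding enzymes and quality-control machinery of the endoplasmic reticulum (ER) in the mouse thymus. The list held 43 genes in 7 roles, and 42 of them were measured, out of 19938 genes on the array. A member counted as measured when a probe set was annotated to it alone, and the probe set of highest mean over the 8 arrays was taken. Sec61g, the small gamma subunit of the translocon, shared its probe sets with other annotated genes and was not analysed here. The array platform's annotation gave 40 members a single probe set and 2 members, Pdia4 and Sec61b, more than 1.

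The ER is the compartment in which secreted and membrane proteins are threaded through a channel, given sugar chains, folded by chaperones and joined by disulfide bonds. Proteins that fail to fold are drawn back into the cytosol and degraded, a route known as ER-associated degradation. Unfolded protein in the lumen is sensed by IRE1, PERK and ATF6, and the resulting unfolded protein response induces ER chaperone genes. In the thymus these genes are used both by developing T cells, which assemble receptor chains in the ER, and by the stromal cells that present peptides and secrete growth factors.

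The spaceflight mice were C57BL/6NTac animals 8 weeks old that spent 13 days aboard the space shuttle (STS-118), and 4 of them gave thymus RNA. The 4 ground-control mice were of the same strain, age and sex and were housed in animal enclosure modules too. RNA of whole thymus lobes was hybridised to 1 array per mouse, so in these bulk samples fewer cells of a type and less RNA per cell cannot be told apart. All values are RMA log2 values, differences are spaceflight minus ground control, and a difference of -1 is a halving. Of the thymocyte markers, Rag1, the recombinase of receptor gene assembly, was bright in all arrays. It was at 12.46 ± 0.10 in spaceflight and 12.47 ± 0.16 in ground control (mean ± SD, n = 4 each). Ptcra was far dimmer, at 6.26 to 6.81 over the 8 arrays. Rag1 also changed least, as the 9 markers differed by -0.25 (Rag2) to -0.02 (Rag1).

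Of the 8 arrays, spaceflight replicates 1 and 3 differed most from the rest. Their values had interquartile ranges of 2.43 each, against 2.68 to 2.95 in the other 6, and their correlation with those was 0.954 to 0.984, against 0.986 to 0.994 among the other 6. Over all genes the median difference was -0.02. It was -0.10 over the 7218 genes with a mean log2 value from 6 to 8, -0.13 over the 3165 genes from 8 to 10 and -0.10 over the 410 genes above that. Without spaceflight replicates 1 and 3 these medians were -0.01, 0.01 and -0.03. All but 1 of the 42 members lay in these signal classes, and the main counts and medians are therefore given with and without the 2 arrays.

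The best known control element of ER chaperone genes is the ER stress response element, which is bound by NF-Y and ATF6 and has the letters CCAAT and CCACG with 9 bases of any kind between them. Promoter sequences (250 bases before to 50 after the gene's start, RefSeq, build GRCm38.p6) were at hand for 35 of the 42 measured members. On either strand, 9 of these 35 (25.7%) held the element in exact form, against 37 of 27025 genes (0.137%) in the promoter table, these 9 included. Because the element is known from ER chaperone genes, its higher share among the members is no independent finding. The 6 elements printed here come from these 35 members. They belong to the chaperone, folding and lectin genes of largest difference that hold one and to Hsp90b1, which alone among the 35 holds 2 elements. Each line runs 5′ to 3′ with 15 bases on either side, and the capitals mark the fixed letters CCAAT and CCACG.
Hspa5: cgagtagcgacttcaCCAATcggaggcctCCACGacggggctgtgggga
Creld2: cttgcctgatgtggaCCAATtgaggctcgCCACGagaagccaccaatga
Pdia6: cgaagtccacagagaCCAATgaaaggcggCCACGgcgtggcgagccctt
Calr: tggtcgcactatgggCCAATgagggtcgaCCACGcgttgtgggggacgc
Hsp90b1, distal: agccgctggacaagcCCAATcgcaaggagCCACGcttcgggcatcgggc
Hsp90b1, proximal: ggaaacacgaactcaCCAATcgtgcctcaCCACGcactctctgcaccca

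These stretches lie at chr2:34772010-34772058 (plus strand, Hspa5), chr15:88819505-88819553 (minus strand, Creld2), chr12:17266476-17266524 (plus strand, Pdia6) and chr8:84847060-84847108 (plus strand, Calr). The distal Hsp90b1 stretch is at chr10:86705623-86705671 (minus strand) and the proximal one at chr10:86705518-86705566 (plus strand). In Hspa5 the element lies 47 to 65 bases before the annotated start of the gene, and in Calr 144 to 162 bases before it. The element reads in the direction of the gene in Hspa5, Pdia6 and the distal Hsp90b1 copy, and against it in Creld2, Calr and the proximal copy. Canx, Ero1lb, Syvn1 and Derl3 were the other searched members that held it. Hyou1 and Manf were among the members with no promoter sequence at hand and were not searched.

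No ER member differed between groups after adjustment over the 28943 probe sets tested. In limma, 0 of 42 members had an adjusted p under 0.05, where 10 of all 19938 genes (0.0502%) did, and the smallest adjusted p was 0.207 (Calr). At an unadjusted limma p under 0.05, 15 members were lower in spaceflight and 1 was higher, against 7.00% of all genes lower and 3.05% higher. The 15 lower members are 35.7% of the 42. The share of all genes is held down by dim genes. With only the 10793 genes of a mean log2 value of at least 6 kept, 11.2% of genes and 15 members were lower at that p. Every spaceflight array lay below every ground-control array for 9 members (21.4%), against 4.28% of all genes, and above every ground-control array for 1 member, against 1.73%. In the signal classes from 6 to 8, from 8 to 10 and above, 6.25%, 7.61% and 9.76% of all genes had every spaceflight array below, against 2 of 13, 4 of 23 and 3 of 5 members.

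The difference was below 0 for 37 of 42 members (88.1%), against 53.5% of all genes, and the median over the members was -0.26. Without spaceflight replicates 1 and 3 the median was -0.07, and 26 of 42 members were below 0 (61.9%, against 53.4% of all genes). The count at an unadjusted limma p under 0.05 was then 8 lower and 2 higher, against 3.68% and 3.27% of all genes. No member passed the adjusted threshold (0.0301% of all genes did). With only 2 spaceflight arrays left, 9 members had both below every ground-control array (8.47% of all genes) and 5 had both above (7.45%). Leaving out arrays can only keep or raise such counts, so the 9 could not become fewer. Leaving out spaceflight replicate 1 alone gave 9 lower members (4.65% of all genes), and leaving out replicate 3 alone also gave 9 (4.86% of all genes). Leaving out replicate 4 gave 20 lower members (10.4% of all genes) and 17 members with every spaceflight array below, against 8.94% of all genes. The 8 members still lower without both arrays were Hspa5, Hyou1, Sdf2l1, Creld2, Pdia3, Pdia4, Pdia6 and Calr, all of them chaperones or folding enzymes of the lumen, and all 8 were also among the 15.

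**Figure D1:**
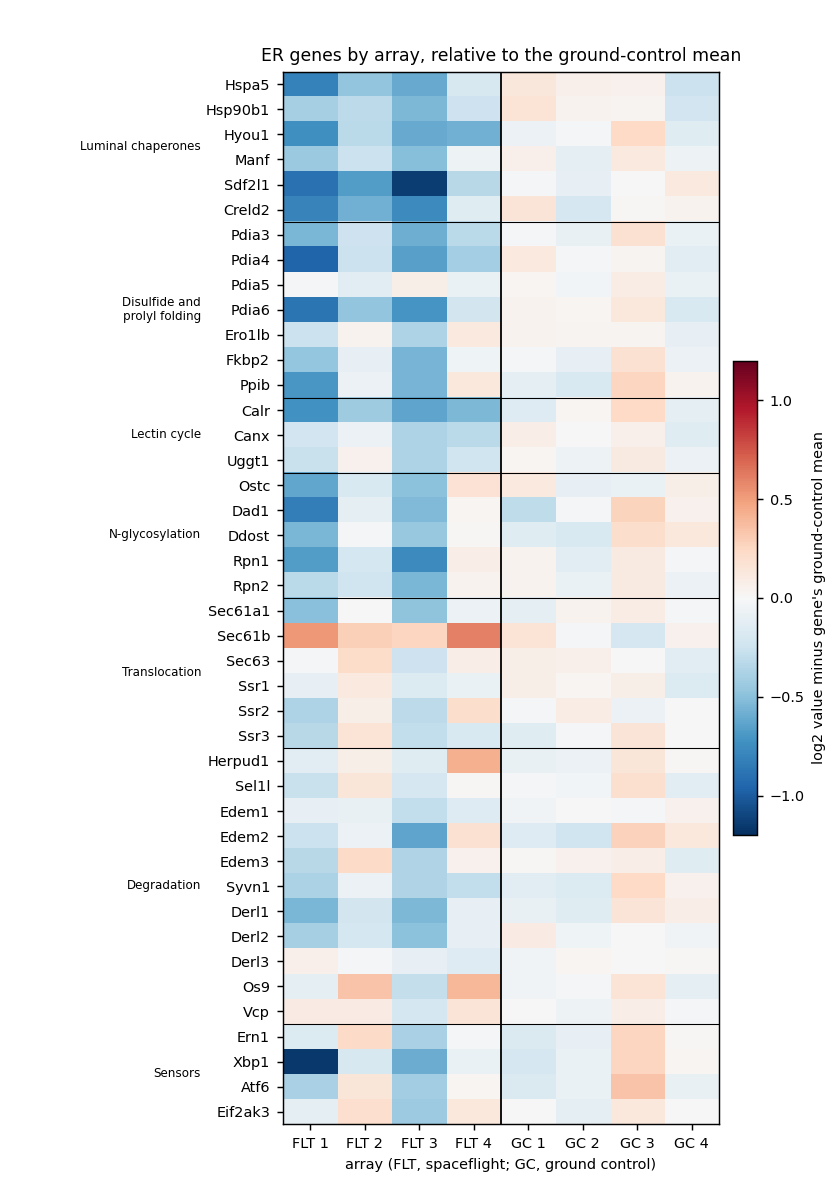
Each row is a measured member and each column an array, with spaceflight (FLT 1 to 4) left of ground control (GC 1 to 4); colour is the log2 value minus that gene's ground-control mean, blue for lower. The rows of luminal chaperones and of Pdia3, Pdia4, Pdia6 and Calr are blue in all 4 spaceflight arrays, while N-glycosylation rows are blue mainly in spaceflight arrays 1 and 3 and Sec61b is red in all 4.

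The luminal chaperones bind exposed stretches of unfolded protein or assist those that do. Hspa5 encodes BiP, the Hsp70 of the ER, which also restrains the stress sensors. Its log2 values were 9.59, 9.93, 9.80 and 10.21 in spaceflight, against 10.54, 10.47, 10.46 and 10.15 in ground control. Spaceflight replicate 4 lay within the ground-control range and the other 3 below it. The difference was -0.53 ± 0.15 (SE), a level 1.44 times lower, with a limma adjusted p of 0.379. Without spaceflight replicates 1 and 3 it was -0.34.

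Hyou1, an Hsp110-type partner that exchanges nucleotide on BiP, had 7.92, 8.33, 8.05 and 8.08 in spaceflight and 8.59, 8.63, 8.90 and 8.51 in ground control. The groups did not overlap. The difference was -0.56 ± 0.13 (limma adjusted p = 0.252), and -0.45 without the 2 arrays. Sdf2l1, a small protein found in complexes with BiP and its J-domain partners, had 6.80, 7.02, 6.56 and 7.36 in spaceflight, against 7.67, 7.60, 7.70 and 7.81 in ground control. These groups did not overlap either, and the ground-control arrays lay close together (SD 0.09, against 0.34 in spaceflight). At -0.76 ± 0.16 (limma adjusted p = 0.21) Sdf2l1 had the lowest difference of the 42 members, a level 1.69 times lower.

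Hsp90b1 encodes Grp94, the Hsp90 of the ER, which folds Toll-like receptors and integrins. It had 10.54, 10.63, 10.40 and 10.69 in spaceflight, against 11.10, 10.98, 10.97 and 10.71 in ground control, so the highest spaceflight array lay just under the lowest control. The difference was -0.37 ± 0.12 (limma adjusted p = 0.416). Creld2, a stress-induced ER protein with isomerase activity, had 7.06, 7.28, 7.10 and 7.71 in spaceflight and 8.01, 7.66, 7.87 and 7.90 in ground control. Its replicate 4 in spaceflight lay within the control range, and the difference was -0.57 ± 0.15 (limma adjusted p = 0.366). Manf, a secreted and ER-retained stress protein, differed by -0.32 ± 0.12 with all arrays and by -0.16 without the 2. All 6 luminal chaperones were below 0 (53.5% of all genes), all 6 at an unadjusted limma p under 0.05 (7.00% of all genes) and 4 of them without the 2 arrays (3.68% of all genes). Their median difference was -0.54, or -0.35 without the 2 arrays.

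Protein disulfide isomerases make and shuffle disulfide bonds, and 3 of the 4 on the list had differences in the range of the luminal chaperones. Pdia6 had 8.60, 9.00, 8.77 and 9.26 in spaceflight, against 9.52, 9.50, 9.60 and 9.29 in ground control, with no overlap. Its difference was -0.57 ± 0.15 (limma adjusted p = 0.348). Pdia4 had 8.35, 9.06, 8.66 and 8.91 in spaceflight, against 9.43, 9.30, 9.35 and 9.18 in ground control, again with no overlap and a difference of -0.57 ± 0.15 (limma adjusted p = 0.367). The second Pdia4 probe set, a dim one with a mean log2 value of 5.30, differed by 0.10 ± 0.22, so the 2 probe sets disagree. With both averaged, Pdia4 differed by -0.24 ± 0.11 (limma adjusted p = 0.501) and was no longer among the members lower at an unadjusted p under 0.05, of which 14 were left. Its place among them depends on the probe set taken. Pdia3, the isomerase that works with calreticulin and calnexin on glycoproteins, had 10.41, 10.71, 10.37 and 10.63 in spaceflight and 10.94, 10.87, 11.14 and 10.88 in ground control. The groups did not overlap, and the difference was -0.43 ± 0.12 (limma adjusted p = 0.378). Without the 2 arrays these 3 genes differed by -0.35, -0.33 and -0.29.

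The other folding enzymes differed less. Pdia5 was at 6.09 ± 0.08 in spaceflight and 6.13 ± 0.08 in ground control (mean ± SD), with a 95% interval of the difference from -0.26 to 0.17. Ero1lb (current symbol Ero1b), the oxidase that recharges disulfide isomerases, differed by -0.12 ± 0.13, and by 0.08 without the 2 arrays. The prolyl isomerases Fkbp2 and Ppib differed by -0.29 ± 0.14 and -0.30 ± 0.19 with all arrays. Without spaceflight replicates 1 and 3 the values were -0.08 for Fkbp2 and 0.03 for Ppib.

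The lectin cycle holds newly made glycoproteins until they fold. Calr encodes calreticulin, a calcium-binding lectin chaperone of the lumen that also stabilises MHC class I during peptide loading. It had 9.54, 9.84, 9.63 and 9.73 in spaceflight, against 10.11, 10.29, 10.50 and 10.16 in ground control. The groups were separated by a gap, with the lowest control array well above the highest spaceflight array. The difference was -0.58 ± 0.12, a level 1.5 times lower with a 95% interval from -0.85 to -0.32 on the log2 scale, and it had the smallest adjusted p of the members (0.207). Canx, the membrane-bound relative calnexin, differed by -0.25 ± 0.11 and Uggt1, the folding sensor that marks unfolded glycoproteins for another round, by -0.21 ± 0.11. In Canx and Uggt1, 3 of the 4 spaceflight arrays lay below the lowest control. Without the 2 arrays Calr differed by -0.48, Canx by -0.20 and Uggt1 by -0.10.

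**Figure D2:**
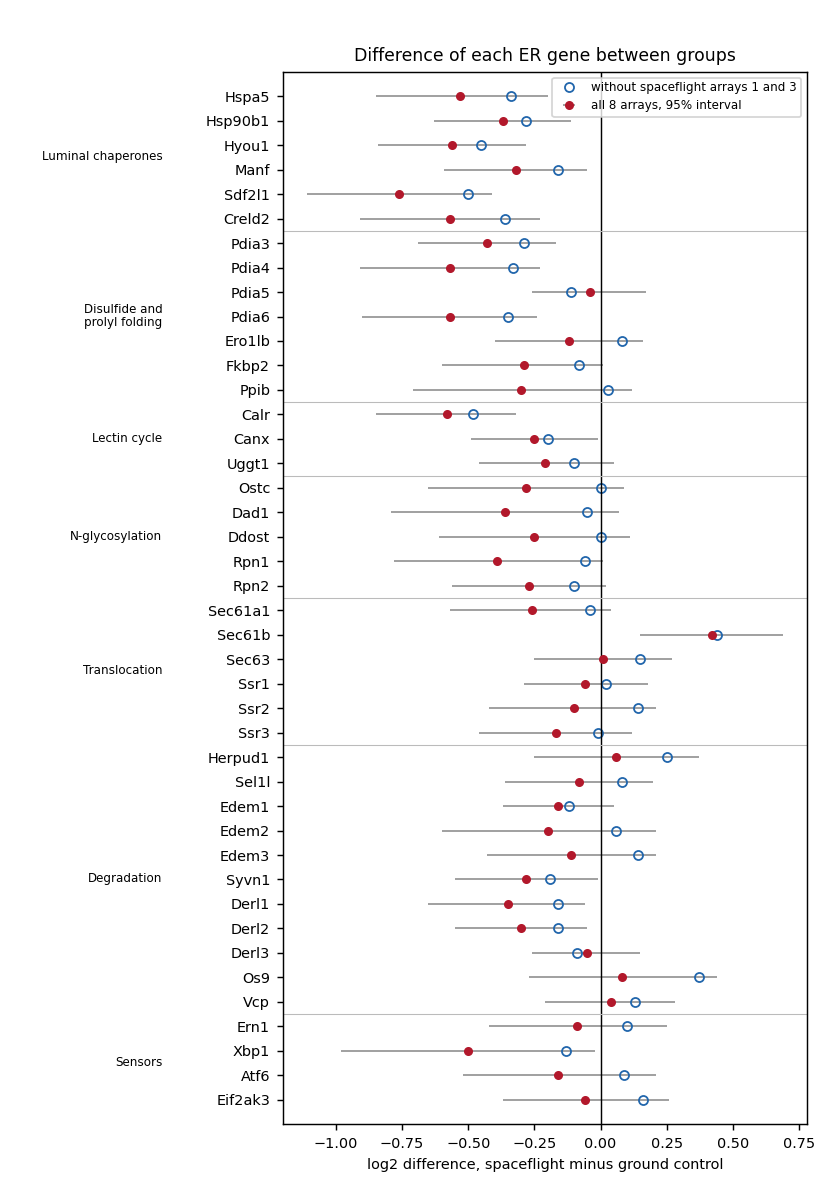
Filled points give each member's log2 difference, spaceflight minus ground control, over all 8 arrays with its 95% interval from limma, and open circles give the difference without spaceflight arrays 1 and 3. The 6 luminal chaperones, Pdia3, Pdia4, Pdia6 and Calr lie below 0 in both, while the open circles of N-glycosylation, translocation and sensor genes lie near 0 or above it, with Sec61b at 0.42 and 0.44.

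The oligosaccharyltransferase attaches the sugar chain to asparagines of incoming proteins, and its subunits are described next. Rpn1, ribophorin I, had 7.47, 7.93, 7.38 and 8.22 in spaceflight, against 8.18, 8.00, 8.25 and 8.13 in ground control. Spaceflight replicates 1 and 3 were low and replicate 4 was as high as the controls. The differences with all arrays were -0.39 ± 0.18 for Rpn1, -0.36 ± 0.19 for Dad1, -0.28 ± 0.17 for Ostc, -0.27 ± 0.13 for Rpn2 and -0.25 ± 0.16 for Ddost. Without spaceflight replicates 1 and 3 the 5 differences ran from -0.10 to 0.00. None of the 5 was at an unadjusted limma p under 0.05 in either setting, and the group's median was -0.28 with all arrays and -0.05 without the 2.

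The translocon genes encode the Sec61 channel, its partner Sec63 and the TRAP complex (Ssr1, Ssr2 and Ssr3). Sec61b, the beta subunit of the channel, was the single member higher in every spaceflight array. It had 8.30, 8.06, 8.04 and 8.38 in spaceflight, against 7.94, 7.76, 7.58 and 7.83 in ground control. The difference was 0.42 ± 0.12 (limma adjusted p = 0.393), and 0.44 without the 2 arrays. Its other probe sets differed by 0.43 ± 0.18 and 0.31 ± 0.15, in the same direction. In the last of these the groups overlapped, with spaceflight replicate 1 at 6.84 and ground-control replicate 1 at 6.87. Whether every spaceflight array lies above every control therefore depends on the probe set taken for Sec61b. So does its place as the member higher at an unadjusted p under 0.05, as the limma p of that overlapping probe set was 0.0642. Sec61a1, the pore-forming subunit of the same channel, differed by -0.26 ± 0.14, so the 2 subunits had opposite signs, and by -0.04 without the 2 arrays. Sec63 differed by 0.01, Ssr1 by -0.06, Ssr2 by -0.10 and Ssr3 by -0.17. Sec63 and the 3 TRAP genes had adjusted p-values from 0.614 to 0.979 in limma, and the sign of Sec63, Ssr1 and Ssr2 changed between settings.

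Genes of ER-associated degradation were mixed. The derlins form part of the channel through which misfolded proteins leave the ER. Derl2 had 7.58, 7.77, 7.49 and 7.88 in spaceflight, against 8.08, 7.93, 7.98 and 7.94 in ground control, with no overlap. It differed by -0.30 ± 0.11 and Derl1 by -0.35 ± 0.13 (limma adjusted p = 0.46 and 0.462), while Derl3, dim at 5.20 ± 0.09 in spaceflight and 5.26 ± 0.03 in ground control, differed by -0.05. Syvn1 encodes Hrd1, the ubiquitin ligase of the pathway, and differed by -0.28 ± 0.12. Without the 2 arrays Derl1 and Derl2 were both at -0.16 and Syvn1 at -0.19.

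Edem1, a lectin that extracts unfolded glycoproteins from the folding cycle, had every spaceflight array below every control but by little (-0.16 ± 0.09, with SDs of 0.10 in spaceflight and 0.04 in ground control). Its relatives Edem2 and Edem3 differed by -0.20 ± 0.18 and -0.11 ± 0.14, and Sel1l, the scaffold of Hrd1, by -0.08 ± 0.12. Herpud1, a stress-induced organiser of the Hrd1 complex, differed by 0.06 ± 0.14, and Vcp, the ATPase that pulls substrates out of the membrane, by 0.04 ± 0.11. Os9, a lectin that delivers glycoproteins to Hrd1, had 8.91, 9.37, 8.74 and 9.42 in spaceflight and 8.98, 9.01, 9.19 and 8.92 in ground control. Spaceflight replicates 2 and 4 were above all controls and replicates 1 and 3 below them, so that the difference was 0.08 ± 0.16 with all arrays and 0.37 ± 0.11 without replicates 1 and 3 (limma adjusted p = 0.584). The degradation genes had a median of -0.11, or 0.06 without the 2 arrays.

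Of the sensor genes, Xbp1 had the lowest difference. Ern1, which encodes IRE1 alpha, differed by -0.09 (95% interval from -0.42 to 0.25). Eif2ak3, which encodes PERK, differed by -0.06 (from -0.37 to 0.26), and Atf6 by -0.16 (from -0.52 to 0.21). The lower ends of these 3 intervals lie above the luminal chaperones' median of -0.54, but all 3 include the difference of the luminal chaperone Manf (-0.32). The interval of Xbp1 ran from -0.98 to -0.02. Sensors were not tested against chaperones. Xbp1, the transcription factor whose messenger RNA is spliced by IRE1, had 8.04, 9.00, 8.60 and 9.12 in spaceflight, against 8.99, 9.12, 9.45 and 9.22 in ground control. Replicates 1 and 3 of spaceflight were low, and replicates 2 and 4 lay within the control range. The difference was -0.50 ± 0.22 (limma adjusted p = 0.485) with all arrays and -0.13 ± 0.14 without the 2. The probe set reports total Xbp1 transcript and the spliced form was not analysed here.

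The roles were also compared array by array. For each array, the median over a role of the log2 value minus the gene's ground-control mean was taken, as a description without a test. For the luminal chaperones it was -0.77, -0.40, -0.61 and -0.22 in spaceflight replicates 1 to 4, against -0.10 to 0.10 in ground control. No spaceflight array reached the control range. For the N-glycosylation genes it was -0.63, -0.18, -0.53 and 0.04 in spaceflight, against -0.11 to 0.11 in ground control, and for the translocation genes -0.22, 0.14, -0.27 and 0.01, against -0.02 to 0.03. In both of these groups spaceflight replicate 4 was at or near the control range.

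A contrast inside each array, chosen after the values had been seen and given with no test, set chaperones against other members. The median of the 6 luminal chaperones minus that of the 11 N-glycosylation and translocation genes was -0.40, -0.40, -0.15 and -0.26 in spaceflight, against 0.06, -0.04, -0.05 and -0.10 in ground control. The spaceflight arrays were all below the control arrays, and of replicates 1 and 3 the one was lowest, level with replicate 2, and the other highest. The means were -0.30 ± 0.12 in spaceflight and -0.03 ± 0.07 in ground control (SD, n = 4 each).

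**Figure D3:**
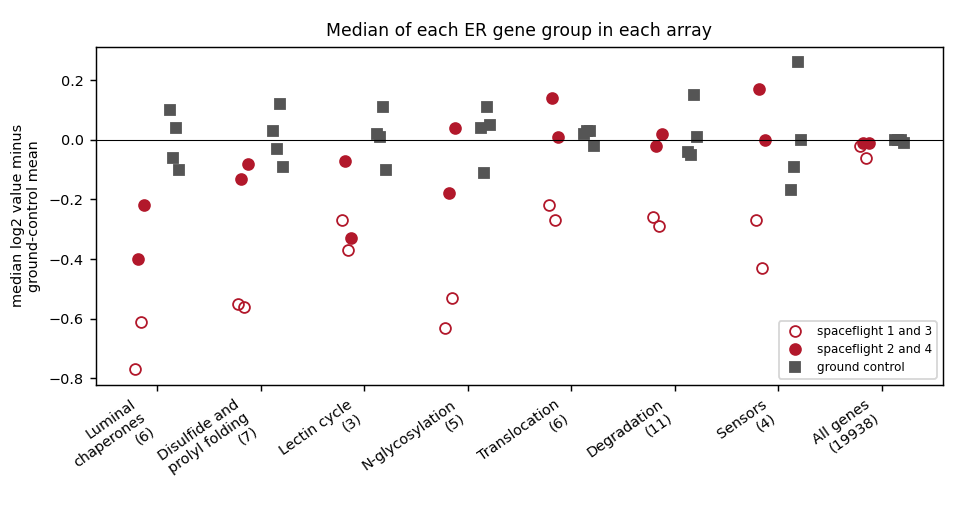
Points give, for each array and role, the median over its genes of the log2 value minus the gene's ground-control mean, with spaceflight as circles (open for replicates 1 and 3) left of ground control as squares; the number of genes is in brackets. For luminal chaperones all 4 circles lie between -0.77 and -0.22 and below all squares, while for translocation, degradation and sensor genes the filled circles lie among the squares or above them, and the median of all genes stays near 0.

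All 9 members that hold the exact ER stress element were below 0, with a median of -0.37 and 7 at an unadjusted limma p under 0.05, among them Calr (-0.58), Pdia6 (-0.57), Creld2 (-0.57) and Hspa5 (-0.53). Of the 26 members whose promoter lacks the exact letters, 21 were below 0, the median was -0.18 and 5 were lower at that p, Sdf2l1, Pdia4 and Pdia3 among them. Of all 15614 measured genes with a promoter, 54.2% were below 0 and 7.21% lower at that p. Without the 2 arrays the medians were -0.28 with the element and -0.01 without it, and 4 of 9 and 3 of 26 were lower, against 3.57% of all measured genes with a promoter. Derl3 and Ero1lb also hold the element and differed by -0.05 and -0.12. The difference between members with and without the element was not tested. Outside the list, 12 measured genes hold it and had a median of 0.02, with 1 of 12 lower at that p (Acacb, -0.67 ± 0.22) and 1 higher. Among them Dnajc3, a J-domain partner of BiP, differed by -0.08 ± 0.10. These 12 genes were not matched to the members by signal level. Over the 9145 genes with a mean log2 value below 6, where 1 member lies, the median difference was 0.08.

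Among the members, other motifs of the same response were found less often than the first. The second form of the element, ATTGG and CCACG with 1 base of any kind between them, was found on either strand in 1 of 35 members and in 0.0444% of all genes with a promoter, and the shorter UPRE, TGACGTGG, in 1 of 35 members and in 0.714% of all. The member with the second form was Herpud1, with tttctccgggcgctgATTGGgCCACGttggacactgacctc at chr8:94386362-94386402 (plus strand, capitals marking the fixed letters), and Herpud1 differed by 0.06. Vcp held the UPRE and differed by 0.04. In all, 3 genes of the promoter table held more than 1 of the 3 motifs. A match here is a description of the letters, and binding was not measured.

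**Figure D4:**
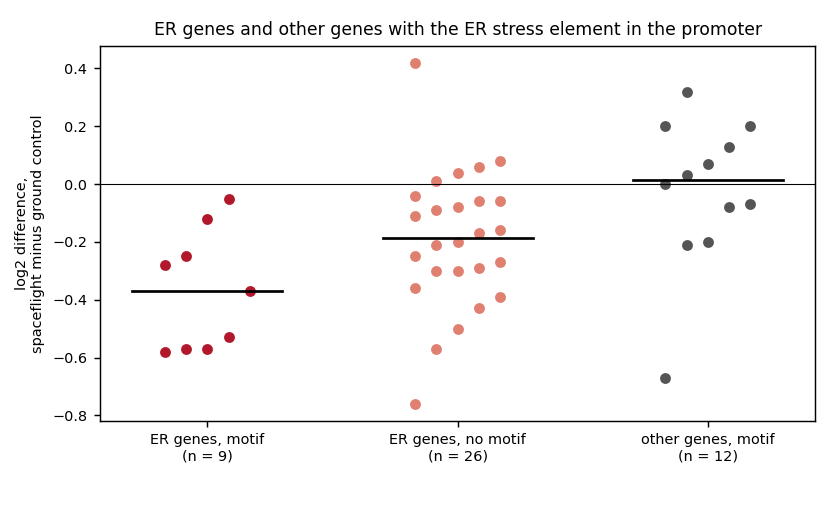
Points are log2 differences, spaceflight minus ground control, of ER members with the exact ER stress element in their promoter (9 genes), ER members without it (26) and other measured genes with it (12), with lines at the group medians. The first group lies wholly below 0 and the third, not matched to the members by signal level, is centred near 0.

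Other genes of the same pathways, from lists of chaperones and folding enzymes, glycosylation and translocation, degradation, and sensors with their outputs, gave the following values. Of 79 measured, 0 had a limma adjusted p under 0.05, and at an unadjusted p under 0.05 there were 8 lower and 1 higher (7.00% and 3.05% of all genes). Their median was -0.15, or 0.00 without the 2 arrays, when 2 were lower and 3 higher (3.68% and 3.27% of all genes). The lowest were Tmem33, an ER membrane protein that enhances stress signalling (-0.53 ± 0.13, adjusted p = 0.342 in limma), Atf6b, the relative of Atf6 (-0.46 ± 0.14, adjusted p = 0.396), and Lman1, a cargo lectin for export to the Golgi (-0.45 ± 0.17, adjusted p = 0.462). Tmem33 and Atf6b stayed at -0.42 and -0.32 without the 2 arrays, and Lman1 was then at -0.17.

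Erlec1, a lectin related to Os9, was the single gene higher at that p. It averaged 7.79 ± 0.24 in spaceflight and 7.39 ± 0.07 in ground control (SD), with every spaceflight array above every control, a difference of 0.40 ± 0.13 and a limma adjusted p of 0.428. Without the 2 arrays it differed by 0.57 (adjusted p = 0.216 in limma). Both spaceflight arrays left were then above every control for 8 of the 79 genes (10.1%), against 7.45% of all genes. Dnajb9, a J-domain protein induced by stress, differed by -0.37 ± 0.18 (-0.10 without the 2 arrays), Ganab, the glucosidase that trims sugar chains for the lectin cycle, by -0.30 ± 0.12 (-0.15), and Spcs3, a signal peptidase subunit, by -0.27 ± 0.12 (-0.10). Over the 14 other sensor and output genes the median was -0.07, over the 28 chaperones and folding enzymes -0.20, over the 20 glycosylation and translocation genes -0.14 and over the 17 degradation genes -0.13. Without the 2 arrays these medians were 0.03, -0.02, 0.01 and 0.01, so that none of the 4 lists was then shifted by more than 0.03.

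Markers of other cells were counted in the same way, with 7.00% of all genes lower at an unadjusted limma p under 0.05 and 4.28% with every spaceflight array below every control (3.68% and 8.47% without spaceflight replicates 1 and 3). Of 8 thymic epithelial markers, 5 were lower at that p and 4 had every spaceflight array below every control, among them Foxn1 (-0.63 ± 0.12), Psmb11 (-0.79 ± 0.16) and Dll4 (-0.47 ± 0.13). Their median was -0.47, or -0.28 without the 2 arrays, when 4 were lower. Their mean log2 level ran from 8.07 to 8.40 in spaceflight arrays and from 8.63 to 8.71 in ground control. Fat cell markers had a median of -0.62 with 4 of 7 lower, and -0.42 with 3 of 7 lower without the 2 arrays (7.59 to 8.52 in spaceflight and 8.51 to 8.99 in ground control). Lpl, a fat cell marker, went the other way, at 0.41 with all arrays and 0.63 without the 2. In the second setting it was the 1 fat cell marker higher at that p (3.27% of all genes).

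In the other marker lists at most 1 gene was lower at that p. Thymocyte markers had a median of -0.15 with 1 of 9 lower, or -0.06 with 0 lower without the 2 arrays. All 9 were below 0 (53.5% of all genes), and 8 without the 2 arrays. For 2 of the 9, every spaceflight array lay below every control, which leaving out arrays cannot undo. Their mean level ran from 10.13 to 10.39 in spaceflight and from 10.37 to 10.46 in ground control. Muscle markers had a median of -0.50, or -0.39 without the 2 arrays, with 1 of 8 lower in both settings (5.83 to 7.99 in spaceflight and 7.26 to 8.13 in ground control). Airway secretory markers had a median of -0.86 with 1 of 8 lower, or -0.39 with 0 lower (5.36 to 8.63 in spaceflight and 8.10 to 9.53 in ground control), and were lowest in spaceflight replicate 1.

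The remaining lists had 0 lower, and their medians had the other sign without the 2 arrays. Each of them then had 1 marker higher at that p (3.27% of all genes). For 9 markers of B and plasma cells, which are rich in ER, the median was -0.05, or 0.16 without the 2 arrays (6.41 to 6.97 in spaceflight and 6.50 to 6.95 in ground control). For 7 fibroblast markers it was -0.03, or 0.15 (7.30 to 8.33 in spaceflight and 7.70 to 8.47 in ground control). For 8 macrophage and dendritic cell markers it was -0.21, or 0.12 (6.47 to 7.14 in spaceflight and 6.91 to 7.10 in ground control). The part of any of these cell types in the ER values was not tested.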

How the data were processed

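Thymus RNA of 8 mice was measured on Affymetrix arrays. The deposited values are log2 expression values, made with RMA and limma per the submitters' processing notes; versions, genome build and filters are not given in the sources used here. Of 35557 probe sets, 6614 form a first gapless block of identifiers with no annotated gene. They were taken as array controls and left out, and 28943 were tested. Of these, 21789 had 1 gene, 1621 several and 5533 none in the platform annotation. Symbols were updated through Entrez identifiers with RefSeq (assembly GRCm38.p6), where 21698 matched, and 19938 genes each took the single-gene probe set of highest mean.

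The groups were compared by limma 3.58.1 under R 4.3.3 (two-sided moderated test, lmFit and eBayes on all 8 arrays without a block), with Benjamini-Hochberg adjustment over all 28943 probe sets and a threshold of 0.05. "Below" and "above" counts ask whether the groups overlap. Promoter letters were searched in Python 3.11.15. The fit was tested on simulated data. The members, their roles, the marker lists and the other ER lists were chosen with earlier results of these data known, so no list is independent evidence of direction. All 43 members could be named, and of other ER genes those of smallest p in each list, up to 5; Acacb and Dnajc3 were named for their promoters after their values were seen. No 2 arrays were identical, and their number limits the precision. Alternatives were centring, repeated quantile normalization, a filter at a mean log2 value of 6, averaged probe sets, array weights, a replicate block and left-out arrays.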

Additional observations from a re-analysis of the deposited data

Results flagged for a closer look

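In 2 of 84 groups of 4 arrays (42 members in 2 groups), a single array lay far from the other 3, its gap to the nearest exceeding the critical share of the group's range in Dixon's test. Chance alone gives about 1 such group in 20. Vcp was at 9.76 in spaceflight replicate 3, against 10.07 to 10.12 in the other spaceflight arrays. Ero1lb (current symbol Ero1b) was at 6.72 in ground-control replicate 4, against 6.85 to 6.86 in the other ground-control arrays, a small gap in a tight group.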

How the results depend on the processing

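No member reached an adjusted p under 0.05 in limma in the main setting or any of 17 others, whose smallest adjusted p-values ran from 0.0907 (without spaceflight replicate 4) to 0.573. Among 713 member values in these settings, 28 had the other sign, from 17 members; none was among the 15 members lower at an unadjusted p under 0.05. Without spaceflight replicates 1 and 3, 8 members were lower at that p and the member median was -0.07. Signs turned there for Ero1lb (0.08), Ppib (0.03), Ddost (0.00), Ssr1 (0.02), Ssr2 (0.14), Sel1l (0.08), Edem2 (0.06), Edem3 (0.14), Ern1 (0.10), Atf6 (0.09) and Eif2ak3 (0.16). Centring on the 75th percentile turned Pdia5 (0.04), Ssr1 (0.02), Derl3 (0.03) and Eif2ak3 (0.02), repeated quantile normalization Ssr1 (0.01) and Eif2ak3 (0.03), and centring on the median Sec63 (-0.00). Leaving out single arrays gave -0.06 to 0.09 for Sec63, -0.06 to 0.13 for Herpud1, -0.02 to 0.21 for Os9, -0.00 to 0.12 for Vcp, -0.19 to 0.02 for Ern1 and -0.14 to 0.07 for Eif2ak3. It gave 9 to 20 members lower at the unadjusted p (4.16% to 10.4% of all genes) and a member median of -0.33 to -0.18. Members with every spaceflight array below numbered 9 to 17 (5.03% to 9.60% of all genes), with 17 without spaceflight replicate 4. That count cannot fall when an array is left out, so its lower end was fixed by the 9 of the main setting. Of the 79 other ER genes, 8 were lower in the main setting (7.00% of all genes) and 2 to 20 with single arrays left out (4.16% to 10.4% of all genes). The count was 3 with 75th-percentile centring (4.21% of all genes), 5 with repeated quantile normalization (6.42%) and 4 with array weights (5.79%). It was 2 without both arrays (3.68% of all genes). The cause of these shifts was not tested. With the replicate number as a block, 12 members were lower at that p (6.27% of all genes) and 0 passed. The block does not enter the count of members below throughout, which is 9 (4.28%) as in the main setting. Deviations of same-numbered arrays of the 2 groups had correlations from -0.3968 to 0.2505, with no steady shared deviation. Whether the numbers pair the mice cannot be told from these values. Signal over background was not analysed here, and levels near 5, as for Derl3, carry least information.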
